A study of Mus musculus with 18 samples.

Results

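The DNA replication genes described here are 36 genes, chosen by symbol for their known roles, of 23420 rows in each of the expression tables, and all 36 were present and tested in every line. They comprise 4 genes of origin recognition and licensing, 6 of the MCM helicase, 5 of helicase activation, 6 of the sliding clamp and its loader, 6 of the polymerases and primase, 4 of single-strand binding and the lagging strand, 2 of nucleotide supply and 3 regulators of the G1/S transition. Whole lungs of mouse embryos at 14.5 dpc (days post coitus) were profiled by RNA-seq in 3 lines, with 3 samples in each of 6 groups and 18 samples in all. Deficient lungs were Rptorf/f; ShhCre/+, Tfamf/f; ShhCre/+ or Cox10f/f; ShhCre/+, and the controls of each line were littermates with a single floxed allele, Rptorf/+; ShhCre/+, Tfamf/+; ShhCre/+ or Cox10f/+; ShhCre/+. Rptor codes for Raptor, a core part of the kinase complex mTORC1, which couples nutrients to growth. The Tfam protein packages the mitochondrial genome and is required for its transcription, and Cox10 encodes an enzyme of the pathway to haem A, a cofactor of cytochrome c oxidase in the respiratory chain. Cre was expressed from the Shh locus, so every sample, controls included, carried only a single intact Shh allele. The deletion was limited to cells that express Shh, which in the lung are the epithelium, while the RNA came from the whole organ with its mesenchyme, vessels and blood cells.

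A cell copies its DNA once per division. In G1 the origin recognition complex, with CDC6 and CDT1, loads rings of the MCM helicase onto origins, a step called licensing. In S phase CDC45, the GINS complex and MCM10 turn the loaded rings into active helicases, primase and the polymerases copy the opened strands behind the PCNA clamp, and ribonucleotide reductase supplies the deoxynucleotides. Cyclin E and the E2F transcription factors control entry into S phase, and many replication genes are E2F targets that are transcribed as cells leave G1, so their mRNA is abundant in tissues with many dividing cells, such as the branching lung.

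Values are normalised read counts (reads scaled by the size factor of each sample), and they summed to between 27727200 and 29611100 per sample. The targeted genes were no check of the labels, since their counts were taken over the whole gene in the whole organ. Rptor read 2197 to 2298 in controls and 1986 to 2442 in deficient lungs, Tfam 1057 to 1185 and 939.9 to 1107, and Cox10 753.3 to 824.5 and 743.4 to 828.6. Each line was tested with limma on log2(value + 1), so a fold change is on that scale, and a gene passed at a Benjamini-Hochberg adjusted p below 0.05 over all genes tested in the line. Nothing in the labels says that the samples of a group came from separate embryos, so p-values measure the spread between these samples only.

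In Rptor-deficient lungs 29 of the 36 genes fell and none rose. This compares with 18.2% of the 14940 genes tested in that line, which fell. The log2 fold changes of the 36 ran from -0.66 to -0.11, all negative, with a median of -0.29 (a change of -18.1%), against a median of 0.0083 over all genes tested. For 33 of them every deficient sample read below every control sample, where 26.0% of all genes tested did so, and 32 were lower at an unadjusted p below 0.05, against 23.4% of all genes. The exceptions to the separation were Gins2, Pcna and Pold1, in which 1 or more deficient samples reached into the control range. The number that fell was 19 without control replicate 2, 20 without control replicate 1 and 23 to 29 without any other sample, and the same 19 members fell in every one of 16 fits with other settings or samples.

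In Tfam-deficient lungs a single member, Mcm3, fell, and none rose, where 2.63% of 15053 genes tested fell. The median log2 fold change was -0.13 (a change of -8.35%), against 0.00098 over all genes, and 35 of the 36 values were negative. In 15 members the deficient samples all read below the controls (11.8% of all genes did), and 14 were lower at an unadjusted p below 0.05 (9.10% of all genes).

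In Cox10-deficient lungs no member passed by limma, where 0.335% of 14937 genes tested fell. All 36 log2 fold changes were negative, with a median of -0.15 (a change of -9.9%) against 0.0014 over all genes. In 22 members the deficient samples all read below the controls (10.8% of all genes did), and 21 were lower at an unadjusted p below 0.05 (6.62% of all genes). Adjusted p-values of the members in this line ran from 0.229 to 0.84.

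**Figure D1:**
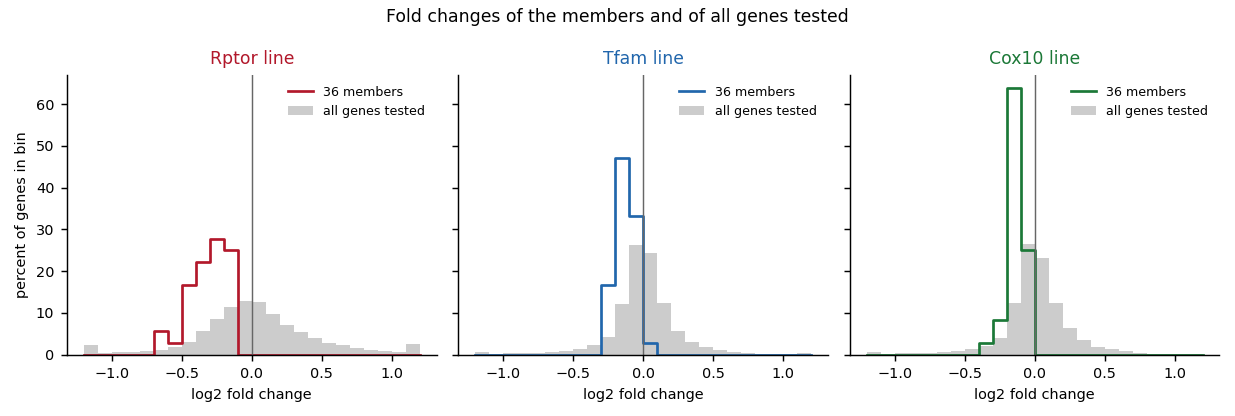
Log2 fold change (horizontal axis) against the percent of genes in each bin (vertical axis), for the 36 members as a coloured outline and for all genes tested as grey bars. Every bin is 0.1 wide, and the outermost bins also hold genes beyond the axis. The outline lies left of 0 throughout in the Rptor and Cox10 lines and reaches past 0 for a single gene in the Tfam line.

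Summed over the 36 genes, the normalised counts were 163275, 159834 and 158337 in Rptor controls and 128571, 129867 and 129292 in Rptor-deficient lungs. The groups did not overlap, and the share of each sample's total was 0.536% to 0.556% against 0.434% to 0.45%. In the Tfam line the sums were 129768, 126940 and 134206 in controls and 116465, 122455 and 120046 in deficient lungs, or 0.451% to 0.478% against 0.416% to 0.437%. In the Cox10 line they were 159871, 164832 and 163431 in controls and 145289, 154887 and 139342 in deficient lungs, or 0.546% to 0.558% against 0.479% to 0.526%. All deficient samples were thus below their controls in each line, with the widest gap between the groups in the Rptor line. The tables were normalised separately for each line, so the lower control values of the Tfam line were not compared by a test with those of the others.

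Promoter sequence was examined because many of these genes are known E2F targets. RefSeq promoter windows of 250 bases before to 50 bases after a start site (GRCm38.p6) were matched for 29 of the 36 genes. The window is the first listed for a gene, and its start site need not be the start of the gene as positioned by GENCODE. The windows of Cdc6, Mcm7 and E2f1 lie wholly inside the gene so positioned, and those of Mcm5, Rpa1, Fen1 and Lig1 wholly before it. A match, or the lack of one, therefore holds for the listed window only. The letters TTTCCCGC, TTTCGCGC, TTTGCCGC and TTTGGCGC, which are common forms of the E2F motif and were searched on both strands, occurred in 11 of these 29 windows (37.9%). They occurred in 2.32% of all 27025 windows of the table and in 3.93% of the 10890 windows of genes tested in the Rptor line. CCAAT was found in 65.5% of the members' windows, against 37.9% of all windows, and the GC box GGGCGG in 69%, against 35.9% of all windows and 63.5% of those of tested genes. The stretches with E2F letters are given with their coordinates, read 5′ to 3′ along the gene's strand. Capitals mark the E2F letters or their reverse complement, which overlap in the Mcm5 window and in the first Mcm6 stretch. Stretches that reach past the start site are cut to 30 bases.
Orc1, chr4:108579402-108579453, plus strand: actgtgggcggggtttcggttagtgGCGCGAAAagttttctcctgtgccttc
Cdc6, chr11:98907988-98908045, plus strand: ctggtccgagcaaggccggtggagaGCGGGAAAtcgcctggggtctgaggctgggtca
Cdt1, chr8:122568035-122568064, plus strand: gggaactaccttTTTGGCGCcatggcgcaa
Mcm3, chr1:20820265-20820294, minus strand: gGCGGGAAAacttgggaagtTTTGGCGCca
Mcm5, chr8:75109331-75109392, plus strand: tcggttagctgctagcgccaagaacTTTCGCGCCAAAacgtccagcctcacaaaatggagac
Mcm6, chr1:128359779-128359840, minus strand: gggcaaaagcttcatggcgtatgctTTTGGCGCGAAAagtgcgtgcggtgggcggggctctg
Mcm6, chr1:128359720-128359777, minus strand: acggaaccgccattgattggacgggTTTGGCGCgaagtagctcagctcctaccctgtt
Mcm7, chr5:138172016-138172073, minus strand: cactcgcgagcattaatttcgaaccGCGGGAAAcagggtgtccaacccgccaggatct
Mcm7, chr5:138171849-138171878, minus strand: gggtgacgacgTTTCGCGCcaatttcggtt
Gins3, chr8:95633493-95633550, plus strand: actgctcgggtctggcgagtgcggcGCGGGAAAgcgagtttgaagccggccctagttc
Rfc3, chr5:151651195-151651224, minus strand: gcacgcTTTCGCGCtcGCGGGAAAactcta
Pola1, chrX:93632261-93632318, minus strand: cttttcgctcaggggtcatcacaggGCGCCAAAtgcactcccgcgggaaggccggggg
Pold1, chr7:44548766-44548795, minus strand: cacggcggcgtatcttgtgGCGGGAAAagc

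Members with and without these letters in the listed window had similar medians, which were not compared by a test. In the Rptor line the 11 with them had a median log2 fold change of -0.29, and 9 of them fell, and the 18 matched members without them had a median of -0.34, and 15 fell. The medians were -0.13 and -0.11 in the Tfam line and -0.17 and -0.14 in the Cox10 line. Rrm2 and Ccne1, which had among the largest falls in the Rptor line, had no such letters in their windows, and this says only that these spellings are not within the 300 bases. Their 250 bases before the start site are given with CCAAT and the GC box, on either strand, in capitals.
Rrm2, chr12:24708004-24708253, plus strand: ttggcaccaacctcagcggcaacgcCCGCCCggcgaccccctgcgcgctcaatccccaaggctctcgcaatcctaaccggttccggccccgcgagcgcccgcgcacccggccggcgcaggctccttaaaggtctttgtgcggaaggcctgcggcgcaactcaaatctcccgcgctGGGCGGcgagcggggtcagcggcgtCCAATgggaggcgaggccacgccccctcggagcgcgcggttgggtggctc
Ccne1, chr7:38107491-38107740, minus strand: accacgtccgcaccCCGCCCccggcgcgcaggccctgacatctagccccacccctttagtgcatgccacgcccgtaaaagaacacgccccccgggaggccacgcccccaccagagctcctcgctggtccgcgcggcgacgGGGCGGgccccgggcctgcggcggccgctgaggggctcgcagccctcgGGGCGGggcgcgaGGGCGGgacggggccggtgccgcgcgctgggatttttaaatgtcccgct

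All 4 licensing genes fell in Rptor-deficient lungs. Cdc6 (chr11:98907801-98923940, plus strand, GRCm38), whose product loads the MCM ring, had the largest change of them, with 2946, 2490 and 2683 normalised counts in controls and 1972, 1945 and 1924 in deficient lungs. The deficient samples lay close together and below every control (log2 fold change -0.47 ± 0.069 SE, n = 3 per group, limma adjusted p = 0.00144). Orc1 (chr4:108579423-108614833, plus strand), the largest subunit of the origin recognition complex, read 672, 680 and 620 in controls and 565, 495 and 480 in deficient lungs (log2 fold change -0.36 ± 0.09, limma adjusted p = 0.016). Cdt1 (chr8:122568015-122573554, plus strand), the partner of CDC6 in loading, read 2356, 2343 and 2353 in controls and 2140, 2002 and 1948 in deficient lungs (log2 fold change -0.21 ± 0.056, limma adjusted p = 0.0196). Orc6, the smallest subunit of the complex, changed by -0.27 (limma adjusted p = 0.00674). Orc1 missed the threshold when control replicate 1 or 2 or deficient replicate 2 or 3 was left out (limma adjusted p = 0.0574, 0.0617, 0.0518 and 0.0511), and Cdt1 missed it in every such fit other than the one without deficient replicate 1 (limma adjusted p up to 0.0646).

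None of the licensing genes passed in the other lines with the main settings. Cdc6 read 2150, 1983 and 1842 in Tfam controls and 1675, 1701 and 1548 in Tfam-deficient lungs, and 2825, 3065 and 2895 in Cox10 controls and 2210, 2728 and 2180 in Cox10-deficient lungs. In both lines all deficient samples were below all controls. The log2 fold changes were -0.28 (95% interval -0.43 to -0.12, limma adjusted p = 0.0522) in the Tfam line and -0.31 (-0.51 to -0.11, limma adjusted p = 0.235) in the Cox10 line, the lowest of the 36 members in each. Cdc6 passed in the Tfam line when the replicate number was a block (limma adjusted p = 0.0251), with the correction for GC content and length without and with the block (0.0238 and 0.0128), and without control replicate 3 (0.0167). Orc1 read 507, 426 and 526 against 429, 506 and 386 in the Tfam line, where the groups overlapped. It read 603, 706 and 634 against 587, 618 and 526 in the Cox10 line, where they overlapped too. Its log2 fold changes were -0.15 (limma adjusted p = 0.564) and -0.17 (limma adjusted p = 0.471), and they ran from -0.25 (without Tfam-deficient replicate 2) to -0.056 (without Tfam-deficient replicate 3) and from -0.22 to -0.10 with 1 sample left out. Cdt1 read 3060, 3352 and 2787 against 2674, 2934 and 2619 in the Tfam line, and 2415, 2308 and 2406 against 2264, 2351 and 1991 in the Cox10 line. Both pairs of groups overlapped, with log2 fold changes of -0.16 and -0.11 (limma adjusted p = 0.311 and 0.501), of which the latter was -0.042 without Cox10-deficient replicate 3. Orc1 and Orc6 share exon bases with genes on the other strand, Gm12743 and Vps35, and it is not stated in the sources used here whether the counting used strand, so reads from such pairs cannot be told apart.

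All 6 subunits of the MCM helicase, the motor that unwinds DNA ahead of the fork, fell in Rptor-deficient lungs, by -0.46 to -0.19 on the log2 scale. Mcm7 (chr5:138164583-138172422, minus strand) fell most, from 10430, 10030 and 10270 in controls to 6928, 7876 and 7533 in deficient lungs (log2 fold change -0.46 ± 0.059, limma adjusted p = 0.00079). Mcm2 (chr6:88883474-88898780, minus strand) read 8212, 8304 and 8439 in controls and 5788, 6329 and 6790 in deficient lungs (-0.40 ± 0.064, limma adjusted p = 0.0021). Controls of both genes were tightly grouped, and the lowest of them was well above the highest deficient sample. Mcm5 (chr8:75109569-75128439, plus strand) read 10720, 9491 and 9902 against 7879, 7668 and 8016, also without overlap (-0.35 ± 0.058, limma adjusted p = 0.00247). Mcm3, Mcm4 and Mcm6 changed by -0.27, -0.25 and -0.19 (limma adjusted p = 0.00319, 0.00921 and 0.0243). Mcm6 missed the threshold without control replicate 1 or 2 or deficient replicate 2 (limma adjusted p = 0.0833, 0.0767 and 0.0808). The subunits were not compared with each other by a test. Exons of Mcm7 hold the microRNA genes Mir25 and Mir93 and overlap Ap4m1 and Cops6 on the other strand.

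In the Tfam line Mcm3 (chr1:20802968-20820312, minus strand) was the only member that passed, with 7136, 7273 and 7117 in controls and 6066, 6265 and 6304 in deficient lungs. The groups did not overlap (log2 fold change -0.21 ± 0.052, limma adjusted p = 0.0463). The call was marginal, and it was lost whenever any sample other than control replicate 3 was left out, with limma adjusted p of 0.146 and 0.133 without control replicates 1 and 2, and of 0.181, 0.149 and 0.116 without deficient replicates 1, 2 and 3. It was also lost with no filter on low values and with values scaled to totals (limma adjusted p = 0.0619 and 0.0575). Mcm6 was the single member with a higher mean in the deficient lungs, 8242, 8412 and 8657 against 8080, 7859 and 8756 in controls, which overlapped (log2 fold change 0.037, 95% interval -0.10 to 0.17, limma adjusted p = 0.811). Mcm2 read 6839, 7247 and 6965 in controls and 6432, 6490 and 6168 in deficient lungs, and Mcm5 read 8298, 7849 and 8482 and then 7423, 7589 and 7508. Neither gene's groups overlapped, and neither passed (log2 fold changes -0.14 and -0.13, limma adjusted p = 0.203 and 0.257).

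Mcm7 read 8405, 8646 and 8715 in Tfam controls and 7496, 8065 and 8009 in Tfam-deficient lungs (-0.13, limma adjusted p = 0.262), and 10440, 10350 and 10440 and then 9072, 9720 and 8539 in the Cox10 line (-0.19, limma adjusted p = 0.246). It did not overlap in either. All 6 subunits had log2 fold changes between -0.19 and -0.14 in the Cox10 line, and none passed. Mcm2 read 8200, 8436 and 8727 in controls and 7665, 7915 and 7021 in deficient lungs (-0.17, 95% interval -0.30 to -0.034, limma adjusted p = 0.311). Mcm5 read 9481, 10290 and 9863 in controls and 8673, 9425 and 8292 in deficient lungs (-0.17, 95% interval -0.31 to -0.026, limma adjusted p = 0.34). For both genes every deficient sample was below every control. The 95% intervals given here are not adjusted for the number of genes.

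Of the genes that activate the loaded helicase, 3 of 5 fell in Rptor-deficient lungs. Mcm10 (chr2:4989714-5012791, minus strand), which is needed for the ring to start unwinding, read 2299, 2349 and 2241 in controls and 1697, 1681 and 1572 in deficient lungs (log2 fold change -0.48 ± 0.057, limma adjusted p = 0.000604). Cdc45 (chr16:18780447-18811987, minus strand), a subunit of the active helicase, read 1967, 1802 and 1713 and then 1524, 1380 and 1319 (-0.38 ± 0.078, limma adjusted p = 0.00695). Neither gene's groups overlapped. Gins1 changed by -0.31 (limma adjusted p = 0.0256), and its partners in the GINS complex did not pass, with -0.14 for Gins2 (limma adjusted p = 0.204) and -0.29 for Gins3 (limma adjusted p = 0.0742). Gins3 had a change close to that of Gins1 but a wider spread, from 560 to 750 in the deficient samples. The calls of both depended on the fit. Gins1 lost its call without control replicate 1, 2 or 3 (limma adjusted p = 0.0889, 0.0512 and 0.0697) and after the correction for GC content and length with the replicate block (0.0593), and Gins3 passed with all 18 samples in one fit (0.0243) and without deficient replicate 2 (0.0359). Cdc45 shares exon bases with Ufd1, and Gins2 with Gse1, on the other strand.

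Neither mitochondrial line had a call among these 5 genes with the main settings. Mcm10 read 1876, 1765 and 1942 in Tfam controls and 1576, 1601 and 1586 in Tfam-deficient lungs, a change of -0.23 (limma adjusted p = 0.0537) with the deficient samples close together and below all controls. It passed with all 18 samples in one fit (limma adjusted p = 0.0352) and with the correction for GC content and length, without and with the replicate block (0.0368 and 0.0335). Cdc45 read 1444, 1423 and 1545 against 1375, 1437 and 1347, which overlapped (-0.085, limma adjusted p = 0.527). In the Cox10 line Mcm10 read 2297, 2409 and 2284 and then 2003, 2204 and 1913 (-0.19, limma adjusted p = 0.286), and Cdc45 read 1811, 1815 and 1799 in controls and 1646, 1677 and 1578 in deficient lungs, both without overlap (-0.15 for Cdc45, 95% interval -0.26 to -0.037, limma adjusted p = 0.287). The log2 fold changes of all 5 genes lay between -0.19 and -0.15 in that line.

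**Figure D2:**
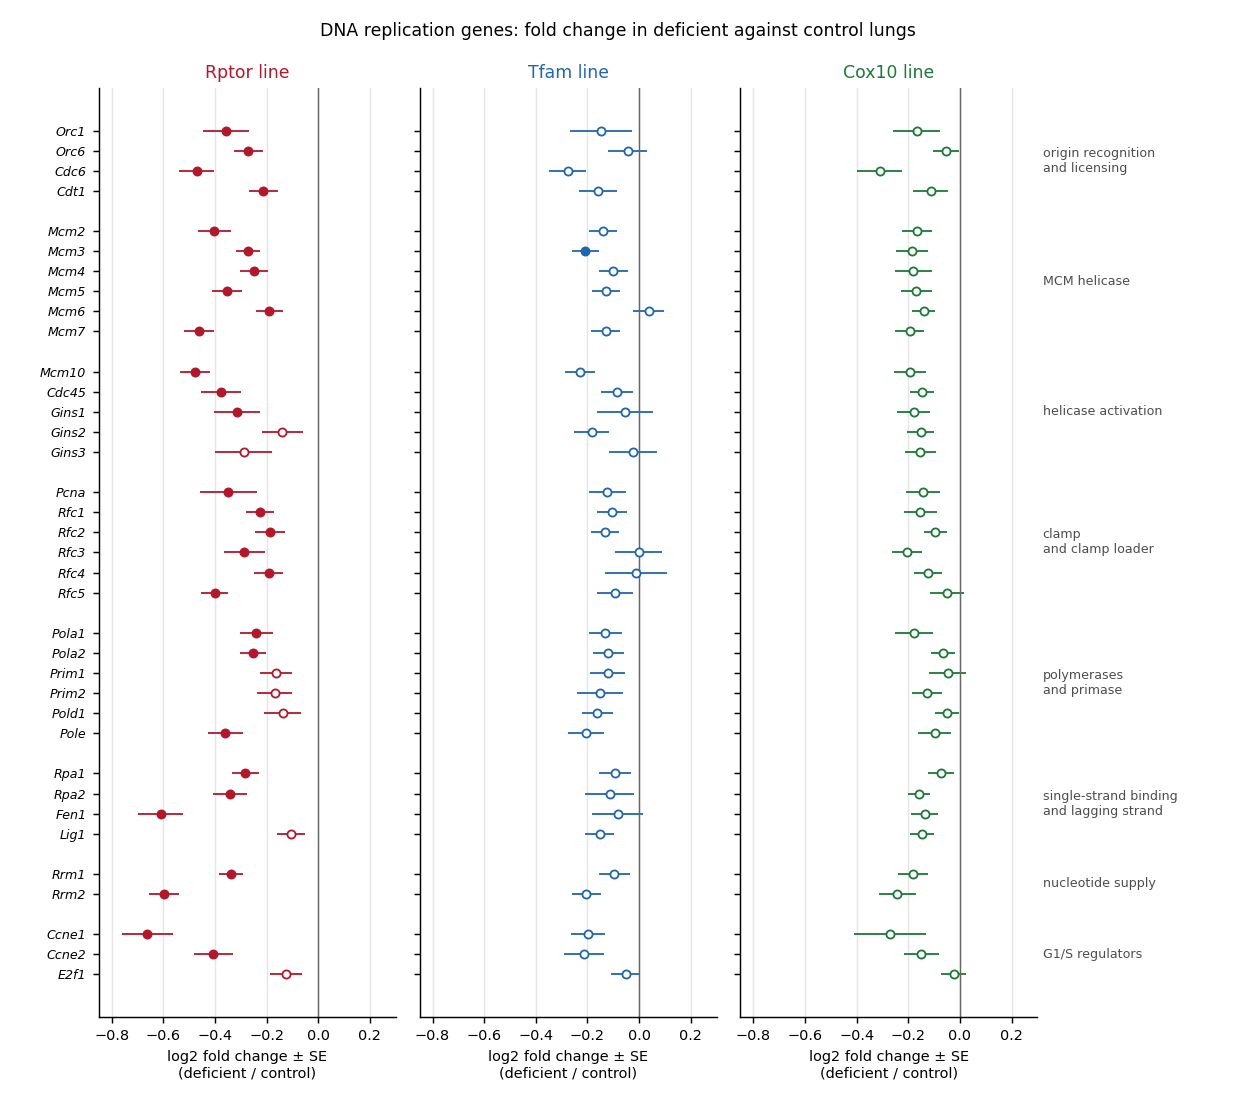
Log2 fold change of deficient against control lungs (horizontal axis) for each of the 36 members, grouped by role, in the 3 lines. Points are limma estimates, bars are ± 1 SE, and filled points passed an adjusted p of 0.05: 29 in the Rptor line, Mcm3 in the Tfam line and none in the Cox10 line.

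The clamp and all 5 subunits of its loader fell in the Rptor line, by -0.40 to -0.19 on the log2 scale. Pcna (chr2:132249162-132253314, minus strand), the ring that holds the polymerases on DNA, read 11280, 9566 and 8380 in controls and 8631, 6976 and 7277 in deficient lungs. Its groups overlapped, since control replicate 3 read below deficient replicate 1, and it passed by a small margin (-0.35 ± 0.11, limma adjusted p = 0.0446). It missed the threshold when low-value genes were not filtered out (limma adjusted p = 0.0588), after a correction for GC content and gene length (0.0984), and without control replicate 1 or 2 or deficient replicate 2 or 3 (0.134, 0.108, 0.13 and 0.107). Rfc5 (chr5:117378103-117389047, minus strand), a small subunit of the loader, had the lowest adjusted p of the group, with 2689, 2786 and 2805 against 2018, 2110 and 2139 (-0.40 ± 0.053, limma adjusted p = 0.000937). Rfc1, the large subunit, and Rfc2, Rfc3 and Rfc4 changed by -0.23, -0.19, -0.29 and -0.19 (limma adjusted p = 0.0138, 0.0334, 0.0227 and 0.0295). These calls were less stable than that of Rfc5. With 1 sample left out Rfc1 lost its call in 1 of 6 fits (without control replicate 2), Rfc3 in 3 (without control replicate 1, 2 or 3), Rfc2 in all but the fit without deficient replicate 1, and Rfc4 in all but those without deficient replicate 1 or 3, with limma adjusted p of at most 0.115. Rfc4 also lost it with all 18 samples in one fit and with the correction for GC content and length, without and then with pairing by replicate number (limma adjusted p = 0.1, 0.111 and 0.139). Rfc2, Rfc4 and Rfc5 share exon bases with Lat2, Eif4a2 and Wsb2 on the other strand.

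Pcna read 7766, 7106 and 8338 in Tfam controls and 6613, 7437 and 7245 in Tfam-deficient lungs, which overlapped (-0.12, 95% interval -0.28 to 0.036, limma adjusted p = 0.42). It read 10360, 11220 and 10710 in Cox10 controls and 9038, 10450 and 9798 in Cox10-deficient lungs, which overlapped as well (-0.14, 95% interval -0.29 to 0.007, limma adjusted p = 0.396). The loader genes had log2 fold changes between -0.13 and -0.0018 with Tfam loss and between -0.20 and -0.049 with Cox10 loss, and none passed. Rfc5 read 2105, 2137 and 2487 in Tfam controls and 2048, 2156 and 2086 in Tfam-deficient lungs (-0.094, limma adjusted p = 0.546). Among the loader genes it was the least changed with Cox10 loss, at 2491, 2699 and 2562 against 2332, 2706 and 2463 (-0.049, limma adjusted p = 0.754). The groups overlapped in both.

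Of the polymerase and primase genes 3 of 6 fell in the Rptor line, and their median log2 fold change of -0.20 was the smallest of the roles. Pola1 (chrX:93304767-93632155, minus strand), the catalytic subunit of polymerase alpha, which extends the primers, read 3531, 3395 and 3231 in controls and 3068, 2775 and 2762 in deficient lungs (-0.24 ± 0.063, limma adjusted p = 0.0188). This call was lost without control replicate 1 or 2 or deficient replicate 2 or 3 (limma adjusted p = 0.0729, 0.0587, 0.0627 and 0.0587). Pola2, its accessory subunit, changed by -0.25 (limma adjusted p = 0.00654), and Pole, the catalytic subunit of the leading-strand polymerase epsilon, by -0.36 (limma adjusted p = 0.0046). The primase genes Prim1 and Prim2 changed by -0.16 and -0.17 (limma adjusted p = 0.0704 and 0.0804), and Pold1, the catalytic subunit of the lagging-strand polymerase delta, by -0.14 (limma adjusted p = 0.171). Those 3 genes did not pass, and Pold1 was the one of them whose groups overlapped. With the correction for GC content and length Pold1 passed (limma adjusted p = 0.0168, and 0.00886 with the replicate block as well).

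In Tfam-deficient lungs Pola1 read 1729, 1825 and 1934 against 2026, 1898 and 2086 in controls, and in Cox10-deficient lungs it read 2670, 3132 and 2607 against 3112, 3277 and 3086. Both comparisons overlapped and neither passed (-0.13 and -0.18, limma adjusted p = 0.327 and 0.371). Log2 fold changes of the 6 genes lay between -0.21 and -0.12 with Tfam loss and between -0.18 and -0.047 with Cox10 loss. For Pold1 (-0.16 and -0.05) and Pole (-0.21 and -0.10) the difference between these lines did not pass (limma adjusted p = 0.977 for each). Pole shares exon bases with Gm15792 on the other strand.

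Among the single-strand binding and lagging-strand genes, Fen1 (chr19:10199132-10204169, minus strand), the nuclease that trims the primer flap between Okazaki fragments, fell from 3767, 3678 and 3855 in Rptor controls to 2133, 2583 and 2724 in deficient lungs. This was a change of -34.5% (log2 fold change -0.61 ± 0.088, limma adjusted p = 0.00137). Rpa1 and Rpa2, subunits of the protein that coats single strands, changed by -0.28 and -0.34 (limma adjusted p = 0.00457 and 0.00471). Lig1, the ligase that seals the same fragments after FEN1 has acted, had the smallest change of all 36 members, from 6922, 7006 and 7396 to 6767, 6812 and 6244 (-0.11, 95% interval -0.23 to 0.021, limma adjusted p = 0.174). The controls and deficient samples of Lig1 did not overlap, but the gap between them was narrow. In the Tfam line Fen1 read 2011, 1905 and 2460 in controls and 1787, 2029 and 2184 in deficient lungs, which overlapped (-0.083, limma adjusted p = 0.734). Cox10 controls read 3345, 3533 and 3550 and deficient lungs 3063, 3326 and 3106, which did not (-0.14, limma adjusted p = 0.351). Lig1 changed by -0.15 in each of these lines, and none of the 4 genes passed in either. Fen1 shares exon bases with Tmem258 and Gm10143, and Lig1 with Zswim9, on the other strand, and Rpa1 with Gm47300 on its own strand, so part of their reads may belong to these neighbours.

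Both genes of nucleotide supply fell in the Rptor line. Rrm2 (chr12:24708241-24714146, plus strand), the small subunit of ribonucleotide reductase and the one made mainly in S phase, had the lowest adjusted p of the 36 members and read 5761, 6155 and 5834 in Rptor controls and 3669, 4079 and 3989 in deficient lungs. The gap between the groups was far wider than the spread within them (-33.9%, log2 fold change -0.60 ± 0.058, limma adjusted p = 0.000259). Rrm1 (chr7:102441695-102469771, plus strand), the large subunit and the member with the highest control mean, read 13480, 13220 and 13410 and then 10430, 10970 and 10360 (-0.34 ± 0.048, limma adjusted p = 0.00136). With Tfam loss the groups were closer, and Rrm2 read 4758, 4698 and 4905 in controls and 4035, 4409 and 4026 in deficient lungs (-0.20, 95% interval -0.33 to -0.078, limma adjusted p = 0.0768). Its counts in the Cox10 line were 6008, 6024 and 6033 and then 5296, 5487 and 4535 (-0.24, 95% interval -0.41 to -0.076, limma adjusted p = 0.257). Neither line's groups overlapped for Rrm2, and neither change passed. With the correction for GC content and length the Tfam change did (limma adjusted p = 0.0322, and 0.0208 with the replicate block as well).

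Of the G1/S regulators both cyclins fell. Ccne1 (chr7:38097984-38107534, minus strand), which encodes cyclin E1, the partner of the kinase CDK2 at S phase entry, had the largest fold change of the 36 in the Rptor line. It read 1850, 1899 and 1913 in controls and 996, 1332 and 1278 in deficient lungs, with a low value in deficient replicate 1 (-36.8%, log2 fold change -0.66 ± 0.10, limma adjusted p = 0.00206). Ccne2 (chr4:11191351-11204779, plus strand), for cyclin E2, read 1172, 1122 and 1161 and then 792, 918 and 900 (-0.41 ± 0.076, limma adjusted p = 0.00432). E2f1 (chr2:154559407-154569892, minus strand), a transcription factor known to drive many of the other members, read 1543, 1559 and 1574 against 1489, 1460 and 1338. These did not overlap, but the change was small and did not pass (-0.13 ± 0.062, 95% interval -0.27 to 0.015, limma adjusted p = 0.148). It passed with all 18 samples in one fit (limma adjusted p = 0.0473) and after the correction for GC content and length with the replicate block (0.0441). Ccne2 shares exon bases with Ints8 on the other strand.

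In Tfam-deficient lungs Ccne1 read 1681, 1547 and 1626 against 1862, 1728 and 1985 in controls, Ccne2 read 936, 938 and 834 against 1119, 1058 and 965, and E2f1 read 1879, 1833 and 1839 against 1863, 1922 and 1974. The cyclins did not overlap with their controls and E2f1 did. Their log2 fold changes were -0.20, -0.21 and -0.053 (limma adjusted p = 0.144, 0.177 and 0.682). Both cyclins passed in 1 alternative, the correction for GC content and length together with pairing by replicate number (limma adjusted p = 0.0336 and 0.0347). In Cox10-deficient lungs Ccne1 read 2393, 2441 and 1625 against 2497, 2598 and 2573, so that deficient replicate 3 was far below its companions, which lay near the controls. Its change of -0.27 ± 0.14 did not pass (95% interval -0.60 to 0.058, limma adjusted p = 0.454), and it was -0.081 without that sample. Ccne2 read 904, 1020 and 961 against 1101, 1095 and 1001 and E2f1 read 1511, 1513 and 1478 against 1574, 1497 and 1510, and both pairs of groups overlapped (-0.15 and -0.025, limma adjusted p = 0.408 and 0.84).

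**Figure D3:**
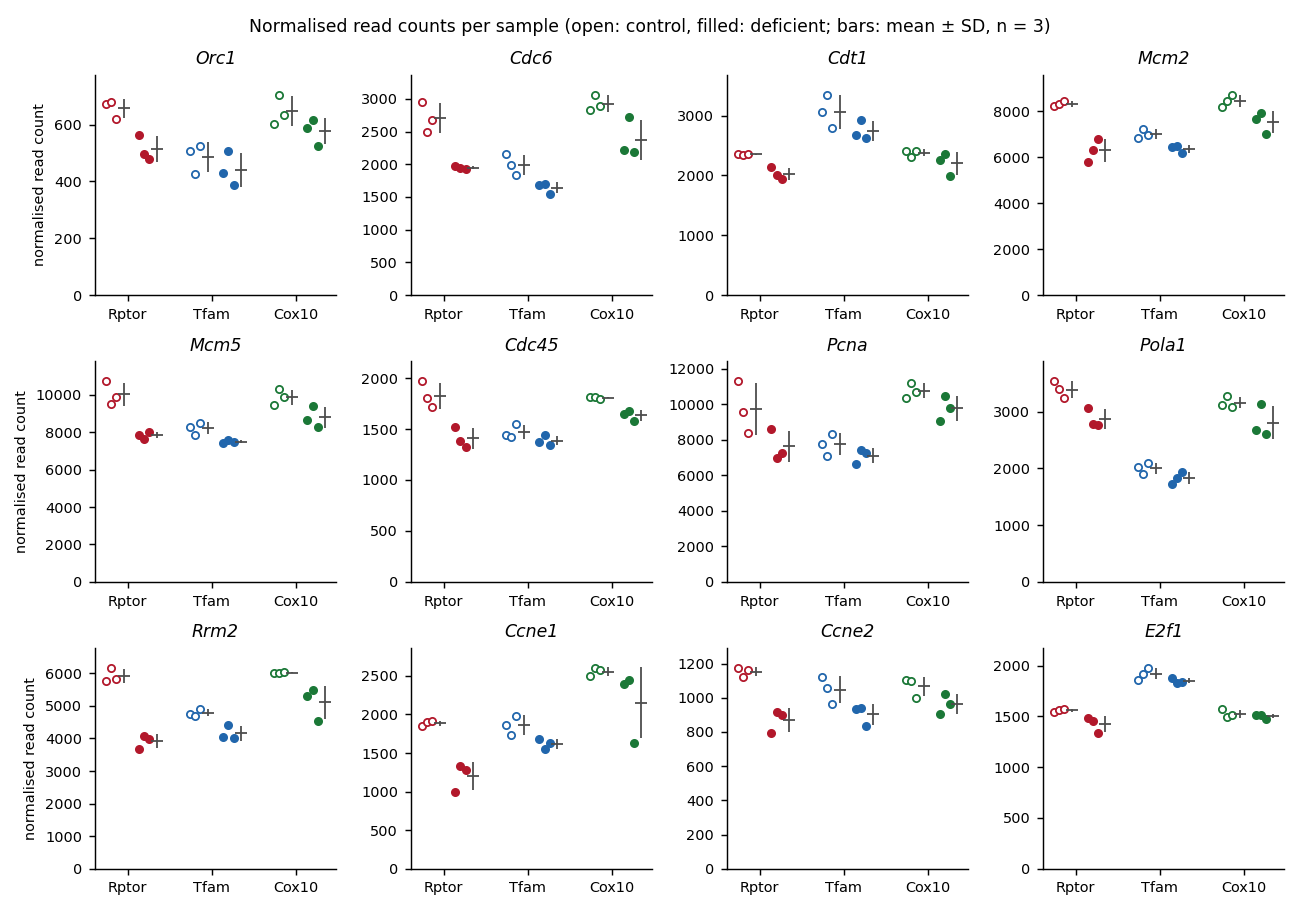
Normalised read counts per sample (vertical axes, from 0) of 12 members, by line (horizontal axes). They represent all roles except single-strand binding and the lagging strand. Open points are control samples, filled points are deficient samples, and the bars give the mean ± SD of 3 samples. Deficient samples lie below the controls of the Rptor line in every panel except that of Pcna, where they overlap.

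Whether the effect of a deletion differed between lines was tested as an interaction in 1 model of all 18 samples. Between the Rptor and Tfam lines 8 of 36 members passed, where 11.2% of the 14550 genes tested in all lines passed in either direction. All 8 had the more negative value in the Rptor line. They were Rrm2 (difference -0.39 ± 0.09 on the log2 scale, limma adjusted p = 0.011), Mcm7 (-0.33 ± 0.078, 0.0119), Fen1 (-0.53 ± 0.13, 0.0191), Rfc5 (-0.31 ± 0.092, 0.0393), Cdc45 (-0.29 ± 0.088, 0.041), and Mcm6, Mcm2 and Rrm1 (-0.23, -0.26 and -0.24). Between the Rptor and Cox10 lines 5 members passed, where 7.48% of all genes did, and these were Rrm2 (-0.35 ± 0.09, limma adjusted p = 0.0224), Rfc5 (-0.35 ± 0.092, 0.0257), Mcm10 (-0.28 ± 0.08, 0.0372), Fen1 (-0.47 ± 0.13, 0.0391) and Mcm7 (-0.27 ± 0.078, 0.0443). Rrm2, Mcm7, Fen1 and Rfc5 thus passed in both. With 1 sample left out in turn, Rrm2 and Mcm7 kept the difference from the Tfam line in all 18 fits, while the number of members that passed was 2 to 14 against the Tfam line and 0 to 8 against the Cox10 line. It was 2 without Tfam control replicate 2 or Tfam-deficient replicate 3, and 0 against the Cox10 line without Rptor control replicate 2, Cox10 control replicate 1 or 3 or Cox10-deficient replicate 2. Ccne1, with the largest change in the Rptor line, did not pass in either (-0.46 and -0.39, limma adjusted p = 0.0911 and 0.183), and Cdc6, lowest in the other lines, did not (-0.19 and -0.16, limma adjusted p = 0.289 and 0.439).

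No member differed between the Tfam and Cox10 lines by limma, where 0.0550% of all genes did. A single member, Mcm6, had an unadjusted p below 0.05 (difference 0.18, 95% interval 0.03 to 0.32, limma adjusted p = 0.977). A p that misses the threshold does not show that the lines were alike. The fold changes of the 36 members correlated across genes at Pearson r = 0.374 between the Tfam and Cox10 lines, 0.341 between Rptor and Tfam and 0.578 between Rptor and Cox10. Members are not independent replicates, and the lines share no samples. For 33 of 36 members the Rptor value was below the Tfam value, and for 34 of 36 it was below the Cox10 value.

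**Figure D4:**
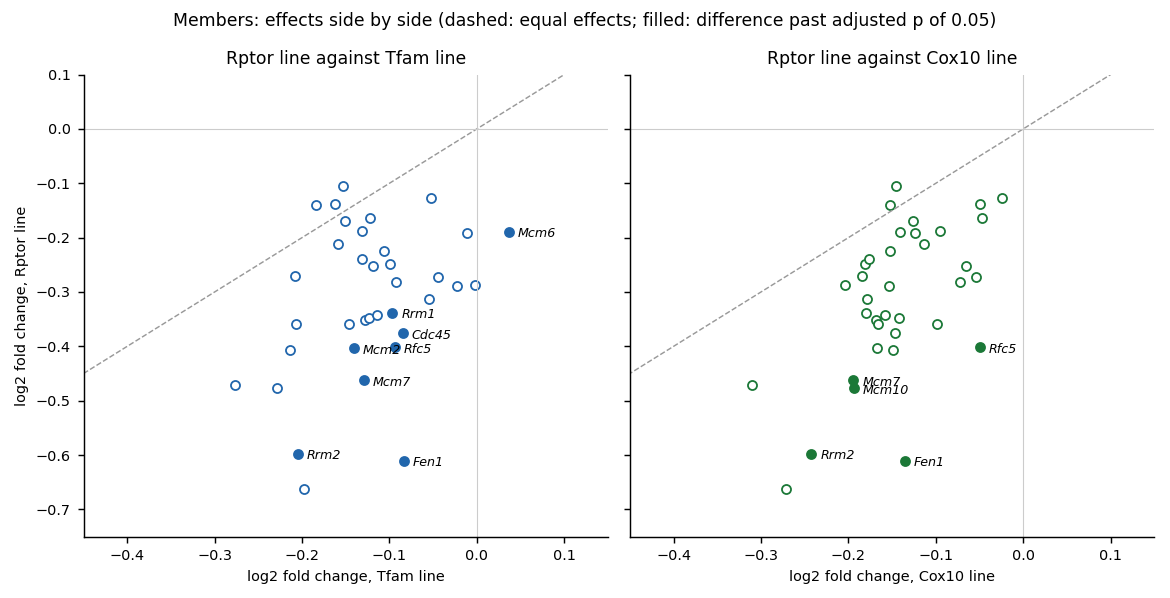
Log2 fold change in the Rptor line (vertical axis) against that in the Tfam or the Cox10 line (horizontal axis), each point a member. The dashed line marks equal effects, and filled, named points are the 8 and 5 members whose difference between the lines passed. Most points lie below the dashed line, 33 of 36 in the left panel and 34 of 36 in the right.

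Levels of the members differed widely when normalised counts were divided by exon length. In Rptor controls Pcna was highest, at 4060 ± 607 (SD, n = 3) counts per kilobase of exon, followed by Mcm4 (2590 ± 143), Mcm5 (2510 ± 157) and Mcm3 (2500 ± 5.65). These MCM levels did not differ from each other beyond their spread. The other subunits of the ring followed with 2310 ± 45.8 for Mcm7 and 2280 ± 68.6 for Mcm6, while Mcm2 lay at 1200, in the range of Rrm1 (1210). Orc1 was the lowest member, at 189 ± 9.46 counts per kilobase, next to Prim2 at 256 ± 12.2. Pcna was also the highest and Orc1 the lowest in the control lungs of the other lines, at 3220 ± 257 and 140 ± 15.2 in the Tfam line and 4480 ± 181 and 186 ± 15.2 in the Cox10 line. Exon length was the union of the exons annotated in GENCODE M21, which need not all be used in the lung.

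Further genes of replication and the cell cycle were taken from lists of genes with known roles. Of 40 other replication genes, 26 fell and 1 rose in Rptor-deficient lungs, where 18.2% of all genes tested fell and 16.6% rose, with a median log2 fold change of -0.29. Orc2, another subunit of the origin recognition complex, fell most, from 1993, 2109 and 1928 to 1248, 1449 and 1405 (-0.56 ± 0.073, limma adjusted p = 0.000918). The gene that rose was Pold4, the smallest subunit of polymerase delta, with 299, 281 and 291 in controls and 369, 381 and 449 in deficient lungs (0.45 ± 0.11, limma adjusted p = 0.0111). Of 27 genes of E2F and G1/S control, 14 fell and 2 rose, with a median of -0.20. E2f2, another activating E2F, read 1020, 1091 and 1077 and then 653, 803 and 839 (-0.48 ± 0.10, limma adjusted p = 0.00696). Ccnd2, for the G1 cyclin D2, read 13060, 11800 and 10730 and then 9371, 8650 and 7379 (-0.49 ± 0.10, limma adjusted p = 0.00642). Both genes that rose encode inhibitors of cyclin-dependent kinases. Cdkn1c (p57) read 9585, 7883 and 10180 in controls and 12250, 11540 and 13930 in deficient lungs (0.45 ± 0.10, limma adjusted p = 0.0108), and Cdkn1b (p27) read 1373, 1426 and 1432 and then 1855, 1582 and 1712 (0.28 ± 0.07, limma adjusted p = 0.0159). Without control replicate 1 only Cdkn1c of these 27 genes rose, and without deficient replicate 1 there were 3, with Cdkn2c, another such inhibitor. Of 20 mitosis genes 16 fell and none rose, with a median of -0.30.

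In the Tfam line 2 of the 40 other replication genes and 2 of the 27 E2F and G1/S genes fell, against 2.63% of all genes tested, and none of the 20 mitosis genes passed. Without control replicate 3 these counts were 5, 4 and 1, and without any other sample 1, 1 and 0. Tyms, for thymidylate synthase, which makes dTMP, read 3539, 3410 and 3699 in controls and 2821, 2888 and 2860 in deficient lungs (-0.31 ± 0.055, limma adjusted p = 0.00781). E2f2 read 1065, 1048 and 988 and then 769, 815 and 800 (-0.38 ± 0.065, limma adjusted p = 0.00705), and E2f7, a repressing E2F, 2702, 2573 and 2100 and then 1945, 1939 and 1776 (-0.37 ± 0.089, limma adjusted p = 0.0386). All 3 separated without overlap, and each had a larger fold change than Mcm3. The other replication gene that fell beside Tyms was Pold2 (-0.23, limma adjusted p = 0.045), a subunit of polymerase delta. The medians of the other replication, E2F and G1/S, and mitosis lists were -0.083, -0.086 and -0.094. In the Cox10 line no gene of these lists passed by limma, with 11, 4 and 1 of them lower and none higher at an unadjusted p below 0.05, against 6.62% of all genes that were lower, and the medians were -0.082, -0.09 and -0.075.

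Markers of lung cell types changed too, in either direction and most in the Rptor line. Of 15 epithelial genes 14 fell there, all but Krt19, and the list had a median log2 fold change of -0.95. Its summed counts were 41045 to 41694 in controls and 17854 to 23481 in deficient lungs. At the same time, against 16.6% of all genes tested, 8 of 12 mesenchymal genes rose (sums of 200318 to 231923 and 402921 to 433722), as did 7 of 10 endothelial genes (37772 to 39862 and 47170 to 53524), 10 of 10 immune genes (4509 to 4808 and 6747 to 8191) and 3 of 4 mesothelial genes (3381 to 4760 and 6728 to 7515). None of the 7 tested erythroid genes or the 5 genes of neurons and glia passed, though with the replicate number as a block 2 erythroid genes rose and 1 mesothelial gene, Msln, fell. In the Tfam line 8 epithelial genes fell (sums of 40050 to 41922 and 32791 to 35685), or 5 without deficient replicate 1 and 5 with all 18 samples in one fit, and 1 of 12 mesenchymal genes, Lum, rose, where 2.63% of all genes fell and 2.03% rose. The epithelial genes Cldn4, Grhl2, Foxa1 and Foxa2 fell in the Cox10 line, 4 in all against 0.335% of all genes (sums of 31656 to 32408 and 21938 to 29224) and no gene of the other cell types passed. That count was 12 without deficient replicate 3, 0 without any 1 of the control samples and 8 with all 18 samples in one fit. Epithelial markers, among them Epcam, Cdh1 and Nkx2-1, were present in all samples. The globin genes Hba-a1 and Hba-a2 were listed at or near 0 throughout, for which the cause was not tested. This does not mean that globin RNA was absent, since Hbb-bs averaged 25100 in Rptor controls and 26800 in Rptor-deficient lungs.

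The part of this shift in cell type markers in the lower level of the replication genes was not tested. In whole lungs fewer dividing or epithelial cells and less mRNA per cell cannot be told apart, and neither can a change within the epithelium from one in the surrounding tissue. The paper measured EdU incorporation, a mark of DNA synthesis, in the epithelium of each of these mutants at earlier stages, and reports it as unaffected.

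**Figure D5:**
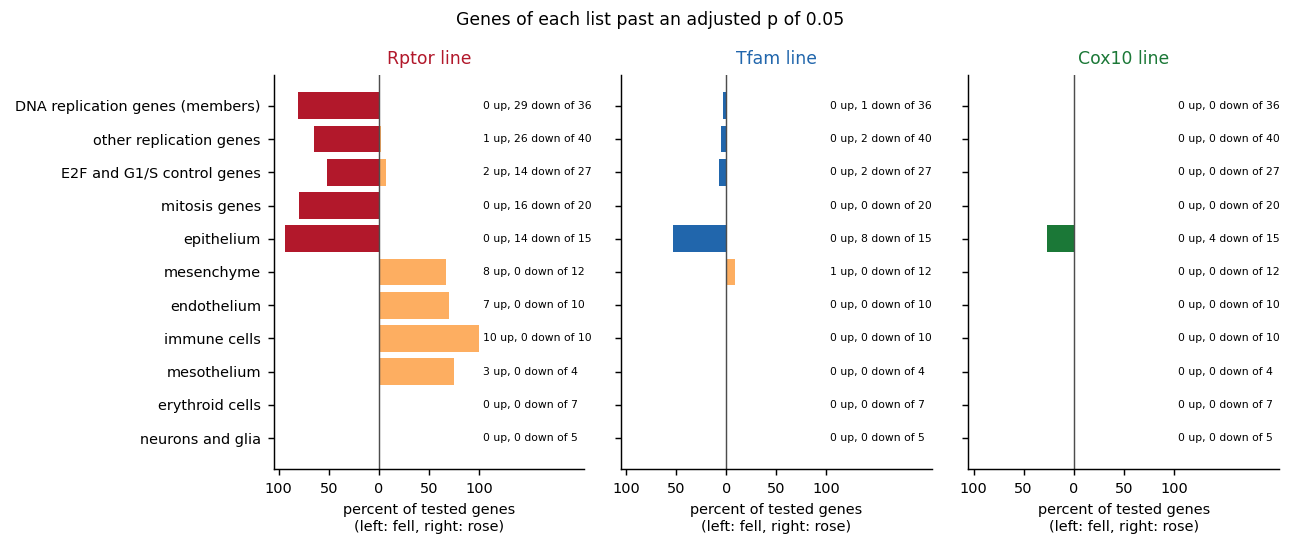
Percent of the tested genes of each list (rows) that fell (bars to the left) or rose (bars to the right) at an adjusted p below 0.05, in the 3 lines, with the counts beside the bars. In the Rptor line 29 of 36 members, 16 of 20 mitosis genes and 14 of 15 epithelial genes fell, while mesenchymal, endothelial, immune and mesothelial genes rose.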

How the data were processed

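Whole lungs at 14.5 dpc had been sequenced by the authors. Their methods name TRIzol and RNeasy extraction and a BGISEQ-500 sequencer, and the labels an Illumina library protocol. The submitters' processing notes name Trim Galore, HISAT2, featureCounts, DESeq2 and the build mm10, with no versions. Per sample, the deposited values are a normalised signal, read counts per gene divided by a size factor. In every sample 100% of values were whole multiples of 1 step (within 0.01 of a step), of 0.978 to 1.02. The 9 columns of the authors' comparisons (fold change, p-value and adjusted p-value) were not used.

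Samples were grouped by title and genotype. Genes with a value of at least 10 in at least 3 of 6 samples were tested per line with limma 3.58.1 (R 4.3.3; lmFit, eBayes with trend) on log2(value + 1), two-sided, which understates changes of low genes. The design foresaw a count test for raw counts, and limma for normalised values was used. Between lines, the difference of effects was tested in a model of 6 groups. The scripts were tested on simulated data. Totals of 27727200 to 29611100 per sample put all members, with group means from 440.4 up, far above counting noise. Replicates correlated at 0.992 to 0.995, and their chi-square per gene was 4.12 to 31.9, where sampling noise gives about 1, so no replicates agreed within sampling noise, as a library present in duplicate would. This does not show that samples came from separate embryos.

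Same-numbered control and deficient samples of the Rptor line deviated together (correlations of 0.221, 0.33 and 0.259 across genes), so its numbers, taken from the titles, were treated as pairs in an alternative fit.

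The members and lists were chosen with earlier results of these data known. Named are 12 members set by role, in each line up to 8 members past the threshold with the lowest adjusted p, up to 5 for each pair of lines, and of the other lists the 3 largest rises and falls past the threshold. Lig1, Mcm6, Gins3 and others were added after their values were seen. Positions are from GENCODE M21 (GRCm38, the assembly of mm10), and promoter windows, the first listed for each gene, from RefSeq. Alternatives were other pseudocounts, filters and scalings, the replicate block, a fit of all 18 samples, leaving out each sample, and, added after seeing the data, a correction for GC content and length.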

Additional observations from a re-analysis of the deposited data

Results flagged for a closer look

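The effect of the deletion differed between lines for 8 members in the Rptor and Tfam lines and for 5 in the Rptor and Cox10 lines, by limma's interaction test at an adjusted p below 0.05. The differences, Rptor minus Tfam on the log2 scale, were -0.26 for Mcm2, -0.23 for Mcm6, -0.33 for Mcm7, -0.29 for Cdc45, -0.31 for Rfc5, -0.53 for Fen1, -0.24 for Rrm1 and -0.39 for Rrm2. Rptor minus Cox10, they were -0.27 for Mcm7, -0.28 for Mcm10, -0.35 for Rfc5, -0.47 for Fen1 and -0.35 for Rrm2. In all of these the Rptor line had the lower value.

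For Mcm6 all 3 deficient samples lay above the control mean in the Tfam line, the lowest of them at 8242 against a mean of 8232, and all 3 lay below it in the Rptor and Cox10 lines. The changes in the Tfam and Cox10 lines did not themselves pass (limma adjusted p = 0.811 and 0.281). The difference passed for Rptor minus Tfam (-0.23) and did not for Tfam minus Cox10 (0.18, limma adjusted p = 0.977). The Tfam-deficient values lay within the range of their controls.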

How the results depend on the processing

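In the Rptor line all 36 members stayed negative in each of the 16 fits, and 19 of them, among them Cdc6, Mcm2, Mcm5, Mcm7, Mcm10, Cdc45, Fen1, Rrm1, Rrm2, Ccne1 and Ccne2, fell in every one. The count of members that fell was 28 to 30 with all samples kept and 19 to 29 when a sample was left out, lowest without control replicate 2 (19). The median was -0.29 and ran from -0.32 (without deficient replicate 2) to -0.27. In the Tfam line the count of 1 became 0 with no filter on low values or with values scaled to totals, 2 with the replicate block and 2 with all 18 samples in one fit, 4 with the correction for GC content and length and 6 with that correction and the replicate block, both added after seeing the data. It was 0 to 3 without a sample, 3 without control replicate 3 (Cdc6, Mcm3 and Pole) and otherwise 0. In the Cox10 line it was 0 in every fit. Of 36 members, 33 to 35 were negative in the Tfam line except without control replicate 3 (28), and all 36 in the Cox10 line. Over all genes 702 passed with Tfam loss and 71 with Cox10 loss, against 399 and 327 with all 18 samples in one fit, 1119 in the Tfam line with the correction and the replicate block, and 255 in the Cox10 line without deficient replicate 3. The cause of these shifts was not tested.

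With the replicate block the Rptor line kept the same 29 calls. The block changed no other call of a member in that line. In the other lines same-numbered samples did not deviate together throughout (correlations of -0.312, -0.207 and 0.151 in the Tfam line and 0.447, 0.202 and 0.0488 in the Cox10 line), and the block gave 2 and 0 members.

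The counts of members that differed between lines depended on single samples. With a sample left out, the 8 for Rptor minus Tfam became 2 to 14 and the 5 for Rptor minus Cox10 became 0 to 8. The extremes for the former were 2 without Tfam control replicate 2 or Tfam-deficient replicate 3 and 14 without Tfam control replicate 3, and for the latter 0 without Rptor control replicate 2, Cox10 control replicate 1 or 3 or Cox10-deficient replicate 2 and 8 without Cox10-deficient replicate 3. Rrm2 and Mcm7 kept their difference between the Rptor and Tfam lines in all 18 such fits, and 0 members differed between the Tfam and Cox10 lines in any fit. With the replicate block 10, 5 and 0 members passed.

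Over all 36 members and the 9 alternatives with all samples kept, the side of the threshold changed for 11 of 324 values in the Rptor line, 12 with Tfam loss and 0 with Cox10 loss. With 1 sample left out it changed for 37, 7 and 0 of 216. Values that did not pass also moved with 1 sample left out, such as -0.18 to -0.067 for Pcna with Tfam loss and -0.30 to -0.16 for Rrm2 with Cox10 loss. In the Rptor line the other replication, mitosis, and E2F and G1/S lists had 22 to 31, 15 to 18 and 11 to 15 genes that fell over the alternatives, and 14 epithelial genes fell in each. Replicates spread more than counting noise gives, so depth alone does not set the precision. Planned count tests (edgeR, DESeq2) on recovered reads were not run, although the values are whole multiples of a step that differs between samples (0.978 to 1.02), so how the calls would change with a count model was not tested.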
